A study of Mus musculus with 9 samples.

Results

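The clustered histone genes encode the bulk of the histone proteins, and their messenger RNA was followed in mouse retinal organoids by single-colour microarray. Every gene spot whose name in the array design begins with Hist1h, Hist2h, Hist3h or Hist4h was taken, with the brightest probe standing for each gene. That gave 56 genes, read by 68 probes, of 37277 genes and 56503 probes in all. Of the 56, 6 encode H1, 18 H2A, 14 H2B, 9 H3 and 9 H4. By cluster, 42 belong to Hist1, 10 to Hist2, 3 to Hist3 and 1 to Hist4.

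Organoids were grown from mouse ES or iPS cells as floating aggregates and harvested at differentiation day 10, 16 and 23 (DD10, DD16, DD23). The lines were B4KO, a knockout of Bhlhb4, a transcription factor of bipolar cells; Isl1KO, a knockout of Islet-1; and wild type (WT). Both knockouts were engineered to lower the number of bipolar cells. Each line was sampled once at each day, as a pool of 5 organoids, so the 9 arrays include no replicate. The spread used in every test is the departure of the 9 values from additive effects of line and day. The B4KO arrays had a slide to themselves, and WT and Isl1KO shared the other, so line and slide cannot be told apart in comparisons with B4KO. The labels do not say how many clones of each knockout were used.

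Histone proteins package DNA: H2A, H2B, H3 and H4 form the nucleosome core, and H1 binds the linker DNA. Most clustered histone genes are expressed during S phase, when new DNA must be packaged, and their mRNAs end not in a poly(A) tail but in a conserved stem-loop, which the protein SLBP binds. Some of these genes can also give longer, polyadenylated transcripts that run past the stem-loop, and such transcripts are known from cells that have left the cell cycle. In the retina, progenitors divide and then leave the cycle as they become neurons. The labelling kit named in the labels primes on poly(A), so how well it copies a transcript that lacks a tail is not known from these data.

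Probe position was therefore read from the probe sequences. A probe counted as lying on the stem-loop if it held at least 8 bases of the consensus with at most 1 mismatch in 8, and started before base 550 of its transcript (850 for H1). Other probes counted as lying past it where they started after base 500 (800 for H1), and in the body otherwise. The next 6 sequences are 30-base stretches of probes on the stem-loop, printed because they mark the processed end of the mRNA; capitals mark the bases aligned to the stem-loop. Coordinates throughout this paragraph are those of the whole 60-base probe in build mm9, per the file headers. The Hist1h1c probe ends inside the stem-loop, and the Hist1h3g and Hist1h4m probes each differ from the consensus at 2 of 16 bases.
Hist1h3a (chr13:23853756-23853815, minus strand): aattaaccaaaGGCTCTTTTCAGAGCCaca
Hist1h2bf (chr13:23665629-23665688, minus strand): taacccaaaGGCTCTTTTCAGAGCCaccta
Hist2h2bb (chr3:96074056-96074115, plus strand): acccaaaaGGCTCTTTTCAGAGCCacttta
Hist1h3g (chr13:23627719-23627778, plus strand): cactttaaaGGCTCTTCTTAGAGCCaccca
Hist1h4m (chr13:21903960-21904019, plus strand): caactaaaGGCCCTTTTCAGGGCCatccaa
Hist1h1c (chr13:23831330-23831389, plus strand): gcctcccctaacaatccaaaaGGCTCTTTT

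Of the 19 probes past the stem-loop, 4 held a poly(A) signal, AATAAA or ATTAAA, and 3 of those are printed here with the signal in capitals. The others shown are downstream probes on which later results turn, and have no capitals.
Hist2h2bb, downstream (chr3:96082754-96082813, plus strand): gttgtcagtttgAATAAAgacagagaaact
Hist2h2be (chr3:96027578-96027637, plus strand): gatcgAATAAAtccattcactgcatgtgca
Hist3h2ba (chr11:58762964-58763023, plus strand): gttcataatggtattAATAAAtttggttca
Hist1h1c, downstream (chr13:23832018-23832077, plus strand): ttttgatcagcatagttgtagattaacttt
Hist1h2ac (chr13:23773343-23773402, minus strand): gaacagctgaagtctcagccgaggccagca
Hist2h3c1 (chr3:96052051-96052110, plus strand): tctttcttgccttagttaacaccctcaaca

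Many histone genes encode nearly the same protein, and some of their probes are nearly the same sequence. The whole 60-base probes of 4 H2A genes, which end at the stop codon, are printed to show this; capitals mark bases that differ from the Hist1h2af probe, 5 of 60 in each of the other probes.
Hist1h2af (chr13:23626113-23626172, plus strand): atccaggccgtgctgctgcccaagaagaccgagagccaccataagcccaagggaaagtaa
Hist1h2ak (chr13:21845304-21845363, minus strand): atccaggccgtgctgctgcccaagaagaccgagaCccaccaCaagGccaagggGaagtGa
Hist1h2an (chr13:21902669-21902728, plus strand): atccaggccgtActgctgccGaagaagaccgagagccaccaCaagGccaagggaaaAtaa
Hist2h2aa2 (chr3:96043781-96043840, minus strand): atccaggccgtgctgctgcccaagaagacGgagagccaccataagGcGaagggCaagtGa
With Hist1h2ag and Hist1h2ah, these made a group of 6 genes whose probes matched at 85% or more over at least 40 bases. Further pairs were Hist1h2aa with Hist2h2ac, Hist1h2ba with Hist1h2bb, and Hist1h4c with Hist1h4j, which makes 12 genes in all. A probe of such a group can bind RNA of its relatives, so values within a group are not independent and are uncertain as to gene. The rule misses shorter matches. The Hist1h2ao probe begins within the Hist1h2an probe, and those of Hist1h2aa and Hist2h2ac match a long stretch of the Hist1h2af probe. The array design also places the stem-loop probe of Hist1h2ai at coordinates that overlap those of the Hist1h2ao and Hist1h2an probes. The same limit holds for these H2A genes.

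Each array carried 59305 gene spots, of which 57.3% to 67.8% were well above background. Signal is given as log2 of the processed intensity over the array's 75th percentile, called the log2 signal below. Levels of different probes are not compared, except in the marker sums and where genes are grouped by signal. The sums add linear levels of different probes, so the brightest probes weigh most in them. Testing needed 3 or more arrays with the probe well above background, a condition that 51 of the 56 histone genes and 23590 genes in all met; 48 of the histone genes were above background on all 9, and none was saturated. Retinal progenitor markers were present in every sample, and all 10 genes listed were measured. In units of the 75th percentile, they summed to 176 in B4KO, 148 in Isl1KO and 87.5 in WT at DD10. At DD16 the sums were 177 to 184.5. At DD23 they were 124 in B4KO, 114 in Isl1KO and 99.98 in WT, so the sum of WT alone was higher at DD23 than at DD10. The bright gene Rax weighs heavily in it, with a log2 signal in WT of 4.23 at DD10 and 5.84 at DD23. Tested singly over the lines, 7 of the 10 genes were lower at DD23 than at DD10 (29.2% of all genes were). Only Rax was higher (1.03, where 31.6% of all genes were higher). Of the 7 photoreceptor genes listed, Nrl, Rcvrn and Nr2e3 were above background in no DD10 sample. In B4KO at DD10 the log2 signal was 5.29 for Otx2 and 1.43 for Crx. The 7 photoreceptor genes summed to 33.7 to 43.7 at DD10, 93.2 to 101 at DD16 and 261 to 317 at DD23. Pigment epithelium markers (7 listed, of which Rpe65 was above background on no array) summed to 54.8 to 59.7, 17.6 to 25.6 and 10.01 to 16.03 on the same days. Pluripotency markers (5 listed, Zfp42 on no array) summed to 1.26 to 1.77 in all 9 samples. Mesenchyme markers (5 listed, Twist1 on no array) summed to 0.911 to 2.18 in 8 samples and 5.46 in WT at DD23. Forebrain markers (3 listed) summed to 9.20 in B4KO, 10.97 in Isl1KO and 19.4 in WT at DD10, and to 2.38 in B4KO, 2.98 in Isl1KO and 1.56 in WT at DD23; of them Emx2 (-3.85) and Lhx5 (-2.14) passed as lower at DD23 than at DD10. Endothelium markers (3 listed) summed to 2.67 to 4.13 at DD10, 7.78 to 9.07 at DD16 and 9.92 to 10.59 at DD23, most of it Kdr. Their part in the day differences below was not tested. In a pooled tissue, fewer cells of a type and less RNA per cell cannot be told apart.

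Most clustered histone genes lost signal between DD10 and DD23. Of 51 tested genes, 40 were lower at DD23, 5 were higher and 6 passed in neither direction (limma, Benjamini-Hochberg adjusted over 23590 genes, threshold 0.05). Over all genes tested, 29.2% were called lower and 31.6% higher in the same comparison, 60.7% in either direction. The median difference of the histone genes was -1.26 log2, against 0.05 for all genes. In 39 histone genes the 3 DD23 samples all lay below the 3 DD10 samples and in 4 all above, where 28.1% and 26.3% of all genes did so. With 1 gene kept from each group of like probes, 32 of 43 were lower and 5 higher. Shorter matches, such as Hist1h2ao with Hist1h2an, were still counted apart in this.

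**Figure D1:**
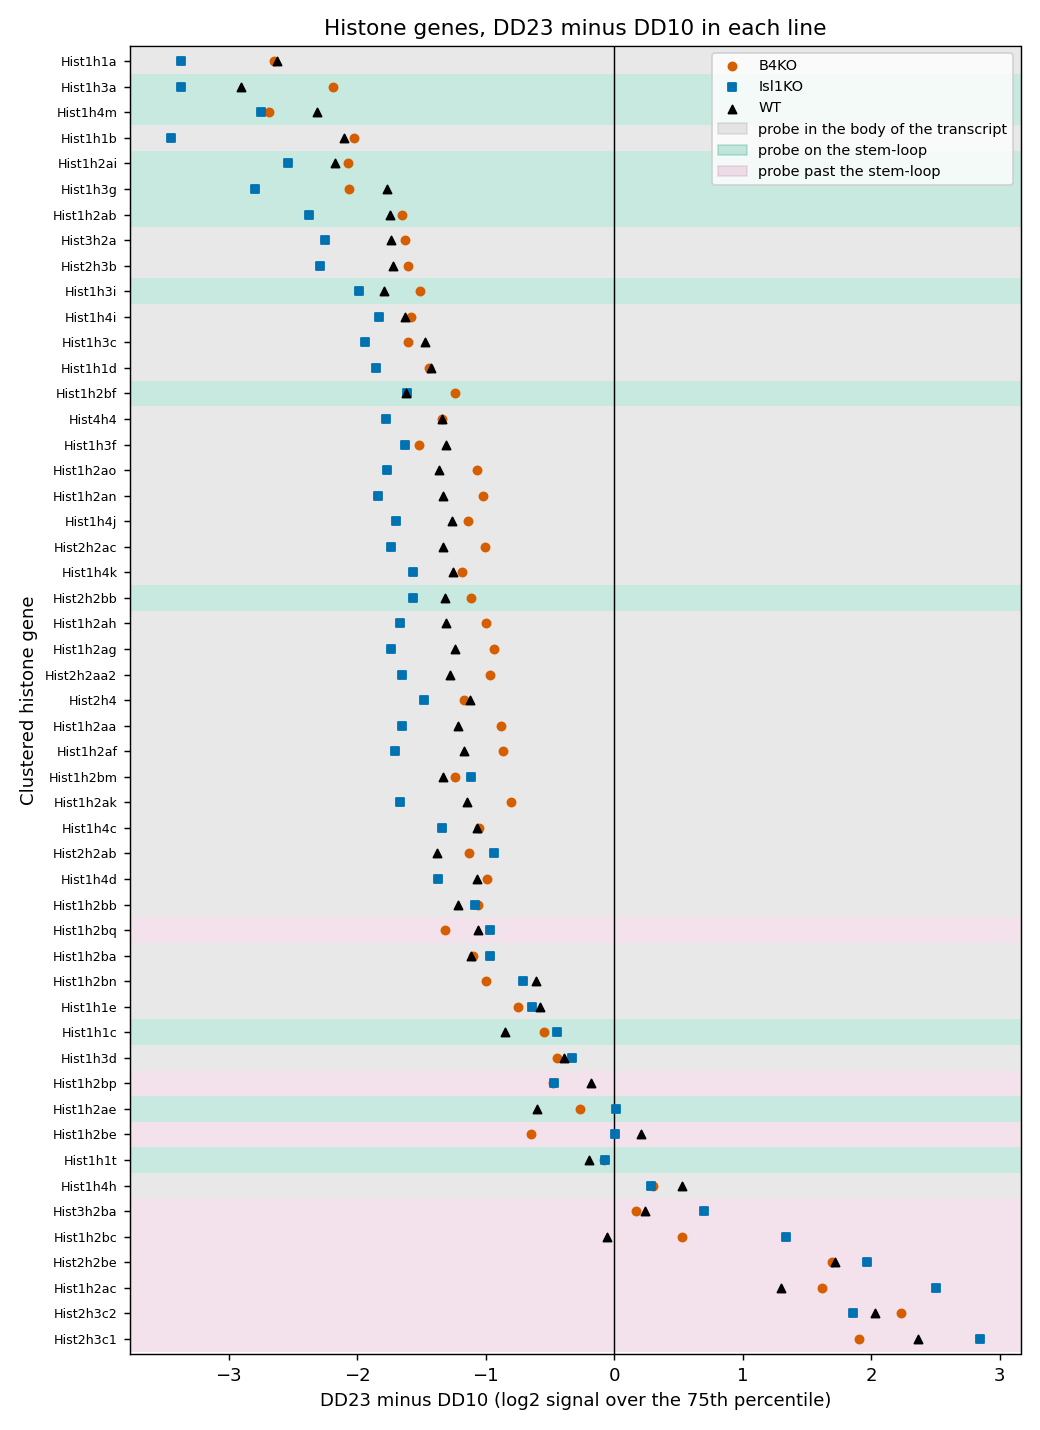
DD23 minus DD10 of the log2 signal (horizontal axis) for the 51 tested histone genes (vertical axis), 1 point per line, with rows shaded by the position of the probe. The points of the upper 40 genes lie left of 0 in all 3 lines, and the lowest rows, led by Hist2h3c1, are nearly all probes past the stem-loop.

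Among the linker histones, 5 of 6 genes fell, and they differed widely in how far. Hist1h1a, the H1 gene with the largest fall, had a log2 signal of 1.64, -0.19 and -1.01 in B4KO at DD10, DD16 and DD23, of 1.32, -0.48 and -2.05 in Isl1KO, and of 1.07, -0.53 and -1.55 in WT. Every DD16 sample lay below every DD10 sample and above every DD23 sample. Its difference between DD23 and DD10 was -2.88 (SE 0.17, adjusted p = 8.45e-05 by limma), a 7.37-fold lower signal. Hist1h1b, another H1 gene, changed by -2.53 (SE 0.30) and Hist1h1d by -1.57. Hist1h1e and Hist1h1c, 2 further somatic H1 genes, differed by -0.65 and -0.61, and both passed. The mean over both probes of Hist1h1c had the other sign, 0.76, and its probes are given apart with the probe positions. Hist1h1t, the testis H1, was dim, with a mean log2 signal of -3.45 at DD10, -3.47 at DD16 and -3.56 at DD23, and its difference of -0.11 (SE 0.11) did not pass (adjusted p = 0.417 by limma).

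Of the 9 H3 genes, 7 fell and 2 rose. Hist1h3a read -0.19, -1.85 and -2.38 in B4KO at DD10, DD16 and DD23, against -0.41, -2.04 and -3.78 in Isl1KO and -0.35, -1.60 and -3.25 in WT. The days did not overlap, and the DD23 samples spread more (SD 0.70, n = 3) than the DD10 samples (SD 0.11, n = 3). Its difference was -2.82 (SE 0.26, adjusted p = 0.000301 by limma). Hist1h3g, Hist2h3b and Hist1h3i, 3 other genes for the same core histone, changed by -2.21, -1.87 and -1.76. Hist1h3d was the gene with the smallest fall of the 40, at -0.39 (SE 0.08), and the 1 of them whose DD23 and DD10 samples overlapped. DD16 overlapped DD10 in 11 of the 40 and DD23 in 4. The share over all genes was not counted for these days, so whether such separation is unusual is not known.

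Of the 9 H4 genes, 8 fell and 1 rose. Hist1h4m had -0.27, -2.07 and -2.95 in B4KO at DD10, DD16 and DD23, with -0.36, -2.12 and -3.11 in Isl1KO and -0.61, -2.15 and -2.92 in WT. The lines lay close together at every day. The difference was -2.58 (SE 0.10, adjusted p = 3.19e-05 by limma). The other 7 H4 genes that fell lay between -1.68 for Hist1h4i and -1.14 for Hist1h4d.

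Of the 15 tested H2A genes, 13 fell, and of the 12 H2B genes, 7 did. The largest H2A falls were those of Hist1h2ai (-2.26, SE 0.16), Hist1h2ab (-1.92, SE 0.23) and Hist3h2a (-1.87, SE 0.19). Hist1h2af, from the group of like probes printed above, read 8.65, 8.49 and 7.78 in B4KO at DD10, DD16 and DD23, against 8.41, 8.22 and 6.71 in Isl1KO and 8.31, 8.06 and 7.14 in WT. Here DD10 and DD16 overlapped, and every DD23 sample lay below both. The 7 H2B falls ran from -1.49 for Hist1h2bf to -0.77 for Hist1h2bn. Hist1h2aa and Hist1h2ba, named as testis genes, changed by -1.25 and -1.06, but both probes closely match that of another histone gene. Germ cell and testis markers summed to 0.161 to 0.293 times the 75th percentile in all 9 samples, with Stra8 and Prm1 above background on none. Ddx4 was above it on all 9 and rose by 1.28 (adjusted p = 0.00034 by limma), and Tnp1, above it in no DD10 sample, was at least 3.56-fold higher at DD23 than at DD10.

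The 5 genes that rose were Hist2h3c1, Hist2h3c2, Hist1h2ac, Hist2h2be and Hist1h4h. The probes of Hist2h3c1, Hist2h3c2 and Hist1h2ac matched no RefSeq gene by their accession. They carry these gene names from the array design alone. Hist2h3c1, an H3 gene of the Hist2 cluster, had a log2 signal of -3.60, -3.24 and -1.69 in B4KO at DD10, DD16 and DD23, of -4.18, -2.79 and -1.33 in Isl1KO, and of -4.02, -3.12 and -1.66 in WT. The days did not overlap, and its rise was 2.37 (SE 0.20, adjusted p = 0.000224 by limma), 5.18-fold. Hist2h3c2, its neighbour in name and histone, read -3.49, -3.64 and -1.26 in B4KO, -3.17, -2.95 and -1.31 in Isl1KO, and -3.67, -3.81 and -1.64 in WT. It was alike at DD10 and DD16 and high only at DD23, with a rise of 2.04 (SE 0.14).

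Hist2h2be, an H2B gene, was the most even of those that rose. Its log2 signal was 0.23, 1.13 and 1.92 in B4KO at DD10, DD16 and DD23, with 0.22, 1.30 and 2.19 in Isl1KO and 0.13, 1.17 and 1.85 in WT. The rise was 1.79 (SE 0.08, adjusted p = 4.98e-05 by limma). Hist1h2ac, an H2A gene, was not well above background in any DD10 sample and was in all 6 later ones, so only a bound holds: at least 3.96-fold higher at DD16 and at least 3.35-fold higher at DD23 than at DD10, with measured means of -4.85 at DD10, -2.80 at DD16 and -3.04 at DD23. The DD23 rise of Hist1h2ac had an adjusted p of 0.000963 by limma, but the gene met the condition for testing only through the 6 later samples, so its place among the 5 is no support for a rise. Hist1h4h, an H4 gene, rose by 0.37 (SE 0.09, adjusted p = 0.0141 by limma), and its days overlapped because B4KO lay below the other lines at every day. Of 20 alternative settings, 5 lost this call.

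**Figure D2:**
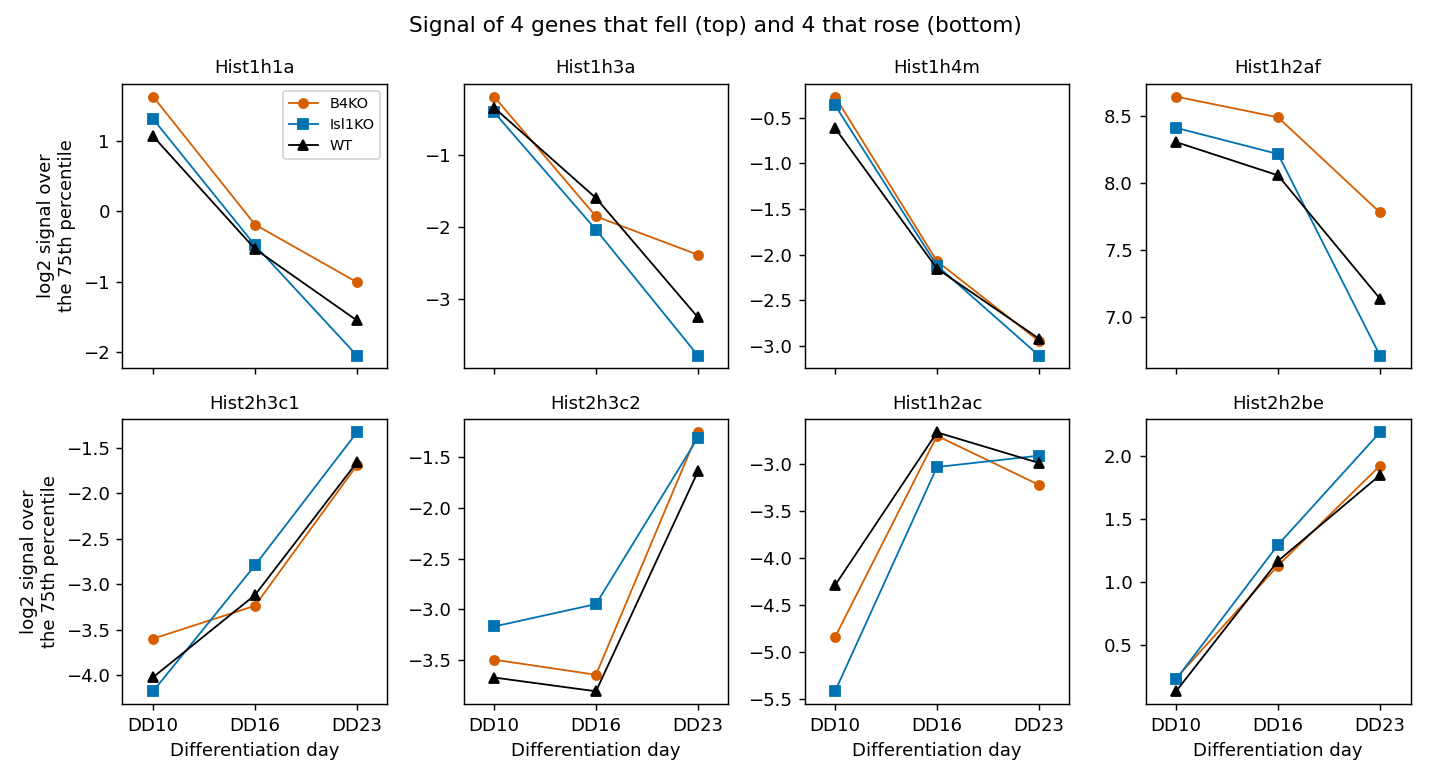
Log2 signal over the array's 75th percentile (vertical axes, each with its own range) at DD10, DD16 and DD23 for 4 histone genes that fell and 4 that rose, 1 line of points per cell line. Hist1h2af changes mainly after DD16, Hist2h3c2 likewise in the other direction, and Hist1h2ac before it.

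The 6 genes that passed in neither direction were Hist1h2bc (0.60, SE 0.28), Hist3h2ba (0.37), Hist1h1t (-0.11), Hist1h2be (-0.14), Hist1h2ae (-0.28) and Hist1h2bp (-0.38). Hist1h2bc, an H2B gene, differed by line: it read 1.30, 1.10 and 1.83 in B4KO at DD10, DD16 and DD23, 1.496, 2.24 and 2.83 in Isl1KO and 1.54, 1.74 and 1.48 in WT. The WT values hardly moved, and without WT at DD23 the difference was 0.92 and passed (adjusted p = 0.0252 by limma). The 5 genes not tested were Hist1h2ad, Hist1h2al, Hist2h2aa1 and the pseudogene Hist3h2bb-ps, above background on no array, and Hist1h2bg, above it on 2.

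The response went with where the probe lay. Of the 31 tested genes read in the body of the transcript, 30 fell and 1, Hist1h4h, rose. Of the 11 read on the stem-loop, 9 fell and none rose. Hist1h2ae, among the 11 but not the 9, has 48 bases of its probe after the stem-loop. Of the 9 read past the stem-loop, 1 fell (Hist1h2bq, -1.11), 4 rose and 4 passed in neither direction. With every probe tested on its own (36326 probes over the arrays, of which 28.9% were lower and 30.7% higher), 33 of 34 body probes and 9 of 12 stem-loop probes were lower, and 9 of 14 probes past the stem-loop were higher and 1 lower. Hist1h2ac is among the 4 genes that rose and the 9 higher probes. It was tested only through its later samples, so it is no support for this pattern. The position classes were drawn up after the day differences were known, and the comparison between genes also sets different genes against each other.

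Some genes had a probe on each side of the stem-loop, as the array design assigns them. For Hist1h1c, Hist2h2bb, Hist3h2a and Hist3h2ba the downstream probe matched no RefSeq gene by its accession. Whether both probes of these genes lie on 1 RNA was not tested. For Hist1h1c the stem-loop probe read 1.74, 1.40 and 1.20 in B4KO at DD10, DD16 and DD23, 1.42, 1.36 and 0.97 in Isl1KO, and 1.502, 1.09 and 0.65 in WT. The downstream probe of Hist1h1c read -0.31, 0.07 and 1.73 in B4KO, 0.01, 1.30 and 2.58 in Isl1KO, and -0.11, 0.64 and 1.67 in WT. The upstream signal thus fell by 0.61 while the downstream signal rose by 2.13 (SE 0.20, adjusted p = 0.000307 by limma). The difference between the 2 probes in their day change was 2.74 (SE 0.13, adjusted p = 0.000289 by limma over the 8070 genes with 2 tested probes).

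Hist2h2bb showed the widest gap. Its stem-loop probe read 3.04, 2.36 and 1.93 in B4KO at DD10, DD16 and DD23, 2.59, 1.75 and 1.02 in Isl1KO and 2.64, 1.96 and 1.33 in WT. Its downstream probe read -3.24, -1.65 and 0.79 in B4KO, -3.20, -1.80 and 1.25 in Isl1KO and -2.90, -1.51 and 0.87 in WT. The stem-loop probe of Hist2h2bb changed by -1.33 and the downstream one by 4.08, a difference of 5.42 (SE 0.21, adjusted p = 0.000137 by limma). The coordinates printed above put the downstream probe far from the stem-loop.

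Hist3h2a followed the same pattern, with -1.87 in the body and 1.37 downstream (difference 3.24, SE 0.31, adjusted p = 0.0013 by limma). In Hist3h2ba, the H2B gene beside it in name and chromosome, the probes gave 0.37 downstream and 0.31 on the stem-loop, a difference of -0.06 (SE 0.07) between stem-loop and downstream probe that did not pass (adjusted p = 0.588 by limma). In 5 genes both probes lay on 1 side, and in none did their difference pass. It was 0.04 (SE 0.06) in Hist2h2be and 0.27 (SE 0.67) in Hist2h3c2, both read past the stem-loop. In the body it was 0.01 (SE 0.06) in Hist1h4k, -0.18 (SE 0.06) in Hist1h4d and -0.40 (SE 0.12, adjusted p = 0.0522 by limma) in Hist1h2bb. Over all genes with 2 tested probes, 29.2% had probes that differed in their day change, and 3.54% had 2 probes that both passed in opposite directions, among them Hist1h1c, Hist2h2bb and Hist3h2a.

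**Figure D3:**
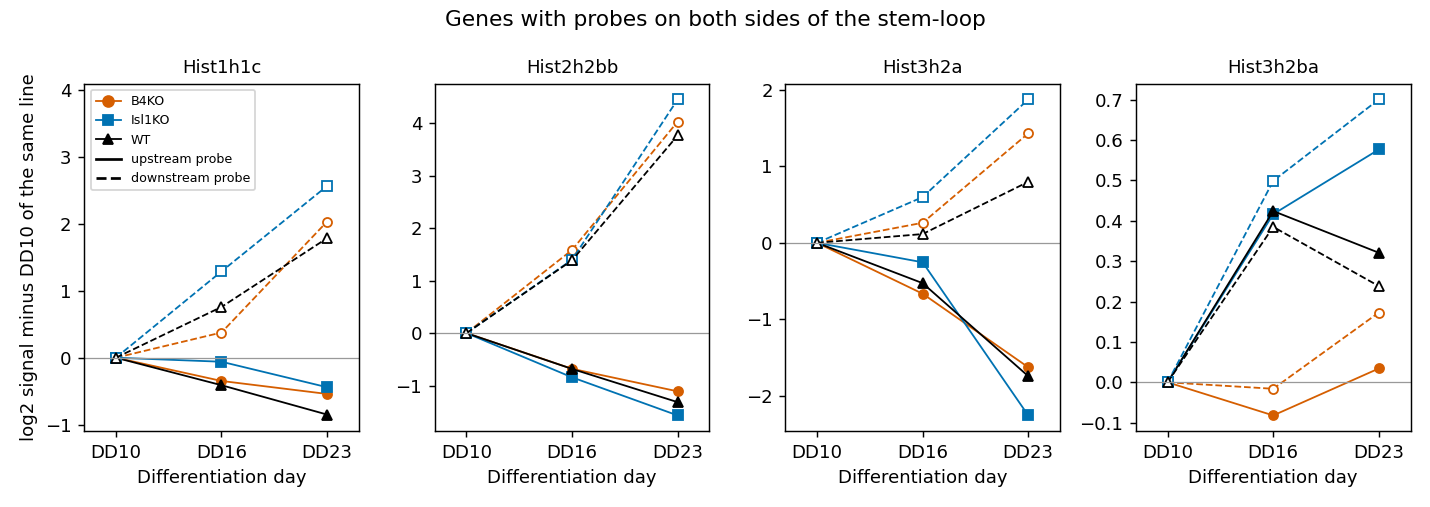
Log2 signal minus the DD10 value of the same line (vertical axes, each with its own range) against day for 4 histone genes with an upstream probe (solid, filled) and a probe past the stem-loop (dashed, open). In Hist1h1c, Hist2h2bb and Hist3h2a the probes part in all 3 lines; in Hist3h2ba they run together.

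Averaged over the lines, 31 of the 40 genes that fell had the larger fall after DD16. Between DD10 and DD16, 26 histone genes were lower (18.8% of all genes) and 3 higher (21.9%; 40.7% in either direction), with a median difference of -0.41. The count of 26 became 14 without Isl1KO at DD10, and 16 without B4KO at DD16 or without WT at DD16. Between DD16 and DD23, 39 were lower (21.9%) and 4 higher (19.3%; 41.2% in either direction), with a median of -0.81. These comparisons share the DD16 samples. By line, the medians over the 40 genes in the first and the second step were -0.66 and -0.70 in B4KO, -0.45 and -1.23 in Isl1KO, and -0.51 and -0.90 in WT. The later fall was the larger in 19 of the 40 in B4KO, 34 in Isl1KO and 33 in WT. Of the 13 H2A genes that fell over the whole course, 1 was lower at DD16 than at DD10 (Hist1h2ai, -1.03) and all 13 were lower at DD23 than at DD16, with medians of -0.22 and -1.12. The 6 like H2A probes are among them. So are Hist1h2aa, Hist2h2ac and Hist1h2ao, whose probes match those in part, so the 13 are not independent readings. All 8 H4 genes that fell were lower in both steps, with medians of -0.61 and -0.81, and so were all 7 H2B genes, with -0.56 and -0.59. Hist1h1a and Hist1h4m changed more in the first step (-1.74 and -1.70) than in the second (-1.14 and -0.88). No test compared the steps between histone types.

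The 3 genes that rose between DD10 and DD16 were Hist1h2ac (at least 3.96-fold, as above), Hist2h2be (1.003) and Hist2h3c1 (0.88). The 4 that rose between DD16 and DD23 were Hist2h3c2 (2.06), Hist2h3c1 (1.49), Hist2h2be (0.79) and Hist1h4h (0.48). Hist1h2ac had -0.24 (SE 0.23) in that step and did not pass.

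**Figure D4:**
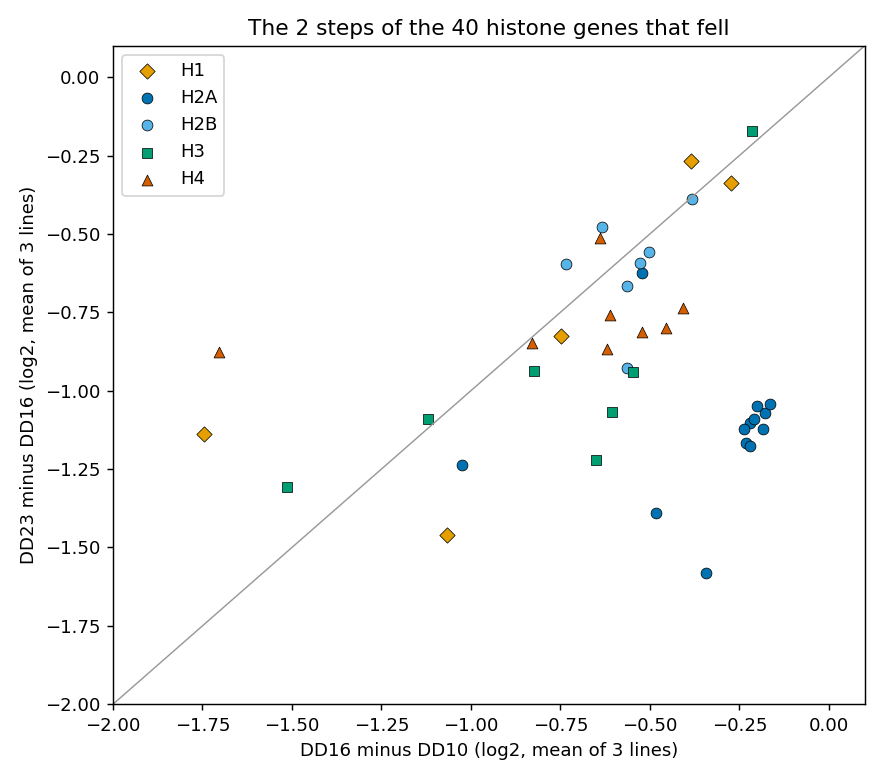
Difference DD23 minus DD16 (vertical axis) against DD16 minus DD10 (horizontal axis), both in log2 and averaged over 3 lines, for the 40 histone genes that fell, by histone. The grey line marks equal steps. Most H2A genes lie at about -0.2 in the first step and below -1 in the second, and Hist1h1a and Hist1h4m lie farthest left.

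Promoters of 43 of the 56 genes, from 250 bases before to 50 after the start, were found in a RefSeq table of build GRCm38.p6. They were searched on both strands for the TATA box (TATAAA), the CCAAT box (CCAAT), the octamer known from H2B promoters (ATTTGCAT) and the H1 box (AAACACA); no motif contains another. A gene counted as holding a motif if any of its promoters did. TATAAA was held by 58.1% of the 43, against 15.7% of the 27025 genes with a promoter, and CCAAT by 86.0% against 41.1%. The octamer was held by 23.3% against 1.97%, and was found in 5 of 10 H2B and 5 of 14 H2A promoters. The H1 box stood in 5 of 6 H1 promoters. CCAAT was present in every H1, H2A, H2B and H3 promoter matched but in 2 of 8 for H4. Of the 5 genes that rose, 1 had a promoter in the table, Hist1h4h, with none of the 4 motifs; of the 37 matched that fell, 22 held TATAAA and 32 CCAAT. With 1 promoter matched among the genes that rose, the groups cannot be compared. The promoters of Hist1h1a, with the largest fall, and of Hist1h4k and Hist1h4h, H4 genes that fell and rose, are printed with TATAAA and CCAAT, in either orientation, in capitals.
Hist1h1a (chr13:23763418-23763717, plus strand): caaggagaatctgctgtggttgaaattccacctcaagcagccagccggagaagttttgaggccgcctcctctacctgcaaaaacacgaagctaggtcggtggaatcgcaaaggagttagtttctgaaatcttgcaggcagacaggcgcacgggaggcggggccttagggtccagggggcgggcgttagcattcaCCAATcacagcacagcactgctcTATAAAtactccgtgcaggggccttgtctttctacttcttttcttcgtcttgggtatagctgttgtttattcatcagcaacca
Hist1h4k (chr13:21750504-21750803, minus strand): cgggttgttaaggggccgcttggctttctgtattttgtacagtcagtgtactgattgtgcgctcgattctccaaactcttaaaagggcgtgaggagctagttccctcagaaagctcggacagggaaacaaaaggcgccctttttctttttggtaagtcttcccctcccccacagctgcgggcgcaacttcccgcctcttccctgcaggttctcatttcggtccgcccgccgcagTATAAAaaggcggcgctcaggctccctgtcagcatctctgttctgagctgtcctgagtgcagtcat
Hist1h4h (chr13:23530794-23531093, plus strand): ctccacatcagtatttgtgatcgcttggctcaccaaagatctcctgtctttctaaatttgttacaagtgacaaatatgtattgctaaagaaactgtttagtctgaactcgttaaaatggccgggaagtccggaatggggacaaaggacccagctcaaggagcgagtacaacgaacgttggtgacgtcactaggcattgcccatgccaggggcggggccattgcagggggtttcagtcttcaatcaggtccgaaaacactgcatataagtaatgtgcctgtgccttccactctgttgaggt

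In 5 head-to-head pairs of an H2A and an H2B gene the promoter windows overlapped, by 220 to 273 bases. In 3 of them both genes were tested and both fell: Hist1h2aa and Hist1h2ba (-1.25 and -1.06), Hist1h2ak and Hist1h2bn (-1.21 and -0.77), and Hist1h2ao and Hist1h2bq (-1.40 and -1.11). In the pair of Hist1h2an and Hist1h2bp the first fell by 1.40 and the second, read past the stem-loop, had -0.38 (SE 0.24, adjusted p = 0.213 by limma). The array design places the probes of Hist1h2an and Hist1h2bq on the plus strand, while their matched promoters lie on the minus strand. Whether the signal of these probes comes from the genes at those promoters is not known. Hist1h2bf fell by 1.49, and its partner Hist1h2ad was not tested.

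The lines differed less than the days. Averaged over the days, B4KO was higher than WT in 8 histone genes (3.99% of all genes were) and lower in 2 (18% of all genes). The 5 largest were Hist1h2bb (0.56, SE 0.08, adjusted p = 0.00549 by limma), Hist4h4 (0.52), Hist2h2bb (0.47), Hist1h3d (0.45) and Hist1h2bm (0.42). Hist1h2bb and Hist2h2bb have a second probe, which did not repeat the difference. It gave -0.05 (SE 0.14) in Hist1h2bb and -0.19 (SE 0.16) downstream in Hist2h2bb, and neither passed. The lower genes were Hist1h4h, at -0.84 (SE 0.09), and Hist1h1t, at -0.70 (SE 0.11). The count of 8 rested on single arrays: it was 2 without B4KO at DD23, WT at DD10 or WT at DD23, 3 without B4KO at DD10, 5 without Isl1KO at DD10 or at DD16, and 19 without Isl1KO at DD23. Of all genes called between B4KO and WT, 18.1% were higher in B4KO, and with normexp background correction 35.1% were. In B4KO, dim genes were lower on the whole: among all genes with a mean log2 signal under -4 the median of B4KO minus WT was -0.45, and among those over 4 it was 0.14. Both histone genes that were lower in B4KO had a mean between -4 and -2, where the median of all genes was -0.21, and all 8 that were higher had a mean over 2. The blood markers Hba-a1 and Ptprc also summed lower in B4KO, with 4.02 to 4.92 against 9.45 to 11.9 in WT. The part of the slide, of these genes and of signal level in the B4KO difference was not tested.

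**Figure D5:**
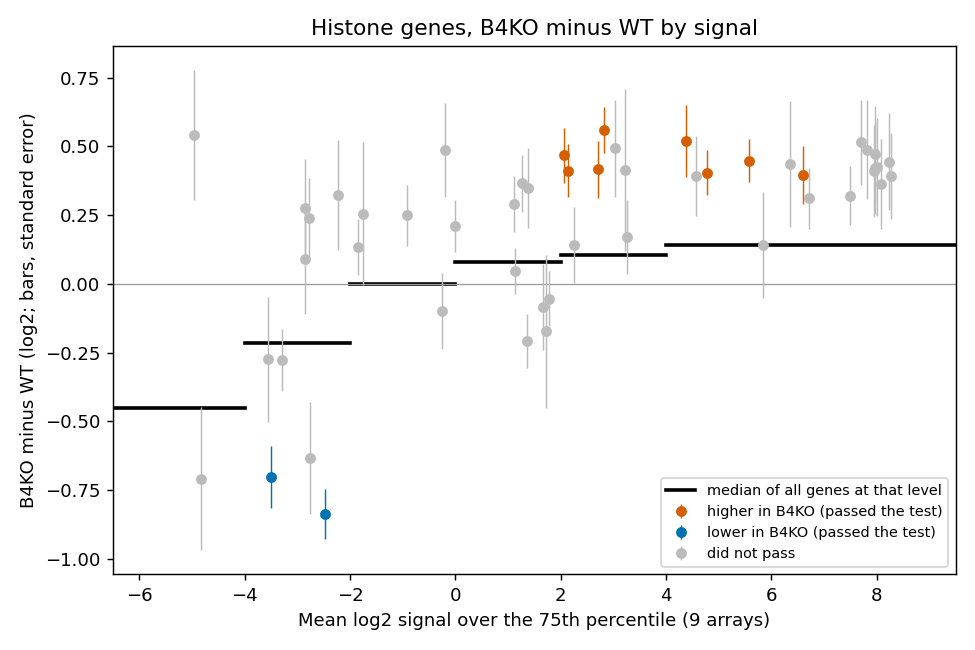
B4KO minus WT (log2, vertical axis, bars are standard errors) against the mean log2 signal over 9 arrays (horizontal axis) for the 51 tested histone genes, with the median of all genes in each range of signal as a black bar. The 8 genes that passed as higher lie right of 2, and the 2 that passed as lower lie left of -2.

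Between Isl1KO and WT no histone gene passed (limma, 0 of 51 in either direction, 2 at an unadjusted p under 0.05, lowest adjusted p = 0.469). Over all genes 0.00424% were higher and 0% lower. The histone genes with the largest differences, none of which passed, were Hist1h2bc (0.60, SE 0.28), Hist2h3c2 (0.56, SE 0.14) and Hist1h2bp. Hist1h2bp was above background in no WT sample, and its signal there allows no fold to be given. In Isl1KO minus B4KO, 3 genes were higher (18.1% of all genes) and 6 lower (3.81%). Higher were Hist1h4h (0.77), Hist1h1t (0.74) and Hist1h2ae, which was above background in the 3 Isl1KO samples alone and was tested only through them, so that for it just a bound of at least 1.30-fold holds. The 6 lower genes were led by Hist2h2bb (-0.66, SE 0.10), Hist4h4 (-0.49) and Hist2h4 (-0.42). The downstream probe of Hist2h2bb had 0.12 (SE 0.16) and did not pass. With any 1 of the 9 arrays left out the count of 6 was between 1 and 3. Of all genes called in Isl1KO minus B4KO, 82.6% were higher, and with normexp 67.8% were.

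At single days the lines parted most at DD23, where 1 array stands against 1 and there is no test. Over the 40 genes that fell, the median of Isl1KO minus WT was 0.06 at DD10, 0.12 at DD16 and -0.28 at DD23, and that of B4KO minus WT was 0.34, 0.27 and 0.52. The median change between DD23 and DD10 of these genes was -1.15 in B4KO, -1.68 in Isl1KO and -1.32 in WT. The 29 listed cell cycle genes had medians at DD23 of -0.52 for Isl1KO minus WT and 0.44 for B4KO minus WT. A model that let each knockout depart from WT at DD23 found no departure in any of the 51 genes (limma, 9 in Isl1KO and 2 in B4KO at an unadjusted p under 0.05, lowest adjusted p = 0.775 and 0.727), and none over all 23590 genes.

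The other genes that bear on histone supply were counted from lists. Of 29 cell cycle genes, 28 were lower at DD23 than at DD10, with a median of -2.04. They include Mki67, a marker of cycling cells (-1.59, SE 0.19), Pcna, the replication clamp (-1.72), Top2a, a topoisomerase of dividing cells (-2.32), Ccna2, cyclin A2 (-1.47), and the helicase subunits Mcm5 (-3.25) and Mcm3 (-2.74). In the first step 17 of the 29 were lower and 2 higher, and in the second all 29 were lower. Of 20 genes for the transcription, processing and decay of histone mRNA, 14 were lower and 2 higher, with a median of -0.55. Slbp, which binds the stem-loop, fell by 0.46 (SE 0.07, adjusted p = 0.00213 by limma), while Cdk2 and its partner Ccne1, which drive entry into S phase, changed by -2.07 and -1.97. Ccne2, the other such cyclin, was above background in no DD23 sample and in 2 of 3 at DD10. Only a bound of at least 1.22-fold lower at DD23 holds for it. Ccne2 met the condition for testing only through DD10 and DD16 samples. Its place among the lower genes counted above is no support for a fall. The genes that rose were Lsm11, a component of the U7 particle that cuts histone mRNA at its end (0.94, SE 0.10), and Mif4gd, an SLBP-binding factor for its translation (0.23, SE 0.07). The call was lost in 1 of 20 alternative settings for Lsm11, whose lowest value was 0.26, and in 9 of 20 for Mif4gd.

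Of 14 histone chaperones and partners, 11 were lower and none higher, with a median of -1.12, led by Hells, a chromatin remodeller (-2.85), and Chaf1b, a subunit of the assembly factor CAF-1 (-2.75). The listed histone variants, encoded outside the clusters, were split: 8 of 13 were lower and 1 higher, with a median of -0.64. Among the lower was H2aj (-1.35), an H2A gene whose probe was not compared with those of the clustered H2A genes. Whether it also binds their RNA is not known. Cenpa, the centromeric H3, changed by -2.16, and H2ax, the H2A variant of DNA damage signalling, by -1.82. H3f3b, 1 of the genes for H3.3, rose by 0.59 (SE 0.08, adjusted p = 0.00151 by limma); it read 5.96, 6.06 and 6.46 in B4KO at DD10, DD16 and DD23, 5.71, 6.002 and 6.47 in Isl1KO and 5.72, 5.93 and 6.22 in WT. Of the 4 measured clustered genes listed from background knowledge as polyadenylated in differentiated cells, Hist2h2be rose and Hist1h1c fell by its brightest probe. Hist1h2bc did not pass. Hist1h2ac was called higher, but was tested only through its later samples.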

How the data were processed

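Per the file headers, the authors obtained spot intensity using Feature Extraction (Agilent, 12.0.3.1). The deposited processed intensity was background-subtracted within each array and not normalized between arrays, per the file headers; flags for background, saturation and outliers stood beside it. The deposited value table was used as a check of scale only. Here the intensity was averaged over spots of a probe, 102 probes with outlier flags were left out, and log2 of the intensity minus log2 of the array's 75th percentile was taken. Genes were tested in R 4.3.3 with limma 3.58.1, with line and day as additive terms over 9 arrays (4 residual and 2.01 prior degrees of freedom), at an adjusted p of 0.05. The number of arrays limits the precision.

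Members and lists were chosen with earlier results of these data known. Named genes were the 10 largest falls and rises from DD10 to DD23, the 5 largest of each step and of each line comparison, 6 histone genes of prior interest, the top 2 in either direction within a list, and Mki67, Pcna, Top2a, Ccna2, Mcm5, Ccne2 and Slbp. Genes named outside this rule, including those with probes on both sides of the stem-loop, were chosen after their values were seen. Alternatives were quantile, median and normexp scaling, other filters, the mean over probes, an intensity trend, 1 slide, and each array left out. Protein sequences were not used here.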

Additional observations from a re-analysis of the deposited data

How the results depend on the processing

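The count of 40 histone genes lower at DD23 than at DD10 was 40 to 41, and that of 5 higher was 4 to 6, with each array left out in turn. The same ranges were 14 to 27 lower and 2 to 3 higher for DD16 minus DD10, 33 to 39 and 4 to 5 for DD23 minus DD16, 2 to 19 higher and 2 to 3 lower for B4KO minus WT, 0 and 0 for Isl1KO minus WT, and 2 to 4 higher and 1 to 3 lower for Isl1KO minus B4KO. With normexp, 16 genes were higher in B4KO than in WT, and 1 was higher and 16 lower in Isl1KO than in B4KO. With an intensity trend 14 were higher in B4KO than in WT and 18 lower in Isl1KO than in B4KO. With no filter these counts were 2 and 2, and 1 gene was lower in Isl1KO than in WT. With probes above background on all 9 arrays 13 were lower in Isl1KO than in B4KO, and with quantile normalization 1 was lower in B4KO than in WT. On the slide of WT and Isl1KO alone 12 genes were lower at DD16 than at DD10, among lines other than Isl1KO 17, and among lines other than WT 13, with 22 lower at DD23 than at DD16. The cause was not tested.

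With the mean over probes Hist1h1c turned sign to 0.76 for DD23 minus DD10, 0.27 for DD16 minus DD10, 0.49 for DD23 minus DD16 and 0.30 for Isl1KO minus B4KO, its 2 probes having opposite day changes. Likewise Hist3h2a had -0.25 and lost its call. Differences near 0 also turned sign. Hist1h1t had 0.0767 with normexp, 0.0327 on the slide of WT and Isl1KO, 0.0493 among lines other than Isl1KO and -0.16 to 0.0597 with arrays left out for DD16 minus DD10. For DD23 minus DD16 it had 0.0621 among lines other than WT and -0.17 to 0.0424 with arrays left out, and for Isl1KO minus WT -0.0509 with normexp and -0.0567 to 0.18. With arrays left out, Hist1h2bc ranged from -0.0586 to 0.45 for DD16 minus DD10 and from -0.49 to 0.0335 for B4KO minus WT, Hist2h2be from -0.0043 to 0.0831 for B4KO minus WT, and Hist1h2aa from -0.21 to 0.12 for Isl1KO minus WT. No paired analysis was possible because the labels carry no replicate numbers, other than by line, which every day comparison already holds as a term. Signal near background limits Hist1h2ac, Hist1h2ae and Ccne2 to bounds.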
